A study of Mus musculus with 18 samples.

Results

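Cholesterol handling genes were examined as a set of 32 genes out of the 55487 in the count tables, chosen by gene symbol. The set holds 18 enzymes of cholesterol synthesis and 4 SREBP2 control genes, which include the gene of the transcription factor SREBP2 itself. It also holds 4 targets of the liver X receptors (LXR), the 2 LXR genes themselves, and 4 genes of sterol transport and storage. All 32 were found in every library and passed the filter on low counts in each tissue. The libraries came from adipose tissue of male mice. In Csn8AKO mice, Cre driven by the adiponectin promoter deletes part of *Csn8*, which encodes a subunit of the COP9 signalosome, in adipocytes. Ctrl mice were littermates that carried the same floxed *Csn8* allele without Cre, called WT in the labels. Subcutaneous white adipose tissue (sWAT) was taken at 12 weeks of age from 4 Ctrl and 4 Csn8AKO mice, and brown adipose tissue (BAT) at 4 weeks from 5 mice of each genotype. The 2 tissues therefore differ in age as well, and these cannot be told apart.

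Cells make cholesterol from acetyl-CoA through mevalonate and squalene. When membrane sterol runs low, SCAP escorts SREBP2 out of the endoplasmic reticulum, SREBP2 is cleaved, and its target genes, which include the synthesis enzymes, are transcribed; INSIG proteins hold SCAP back when sterol is ample. LXR is activated by oxysterols and by sterol intermediates, and drives genes that export cholesterol, such as *Abca1* and *Abcg1*. Adipocytes store much free cholesterol in their lipid droplets, and macrophages that clear lipid from dying cells store it as esters and export it.

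Total counts ran from 15835721 to 23109603 per sWAT library and from 26658593 to 66719937 per BAT library. Every member had at least 15 reads in every library. Ribosomal RNA genes took between 0.863% and 47.8% of the counts, with the highest share in Csn8AKO replicate 4 of sWAT. *Cops8*, the mouse symbol of the targeted gene, measured 35.0 ± 0.911 CPM (read counts scaled to library size; SD, n = 4) in sWAT Ctrl and 32.2 ± 2.98 in sWAT Csn8AKO, and 39.5 ± 3.22 against 32.2 ± 3.56 in BAT (SD, n = 5). Its change passed the test in BAT (log2 fold change −0.30, adjusted p = 0.0211, edgeR's quasi-likelihood test) and not in sWAT (−0.12, adjusted p = 0.623); the counts take in exons outside the deleted part and cells without Cre, so they are a weak check of the labels. *Adipoq*, which defines adipocytes, was between 491 and 1564 CPM in sWAT and between 617 and 781 CPM in BAT, and *Ucp1*, which defines brown fat, was between 1568 and 5243 CPM in BAT and at most 6.89 CPM in sWAT.

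In Csn8AKO BAT, 3 of 4 LXR targets and 3 of 4 transport and storage genes were higher, where 16.0% of all genes were higher. Of the 18 synthesis enzymes, 2 were higher and 4 lower there (33.3% of them, against 31.9% of all genes). In sWAT, 3 of the 32 members passed an adjusted p of 0.05 (9.38% of the set; 5.31% of all 18843 genes tested passed). *Soat1* was higher, where 2.3% of all genes were higher, and *Acat2* and *Fdft1* were lower, where 3.0% were lower. Each of the 3 also changed by at least 1 on the log2 scale, and 3.31% of all genes met both criteria. In BAT, 13 members passed (40.6%, against 31.9% of all 22345 genes tested). Of these, 8 were higher and 5 lower, where 16.0% of all genes were higher and 15.8% lower. *Fdft1*, *Abcg1* and *Soat1* were the 3 that also changed by at least 1 on the log2 scale. Both criteria were met there by 11.0% of all genes. The 8 were *Hmgcs1*, *Mvd*, *Abca1*, *Abcg1*, *Apoe*, *Npc1*, *Npc2* and *Soat1*, and the 5 were *Acat2*, *Fdft1*, *Lss*, *Dhcr7* and *Scap*. *Soat1*, *Acat2* and *Fdft1* passed in both tissues in the same direction. The values of the 2 genotypes did not overlap for 5 members in sWAT (15.6%, against 14.0% of all genes) and for 7 in BAT (21.9%, against 21.0%), so the share of members with separated groups was near that of the whole table.

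**Figure D1:**
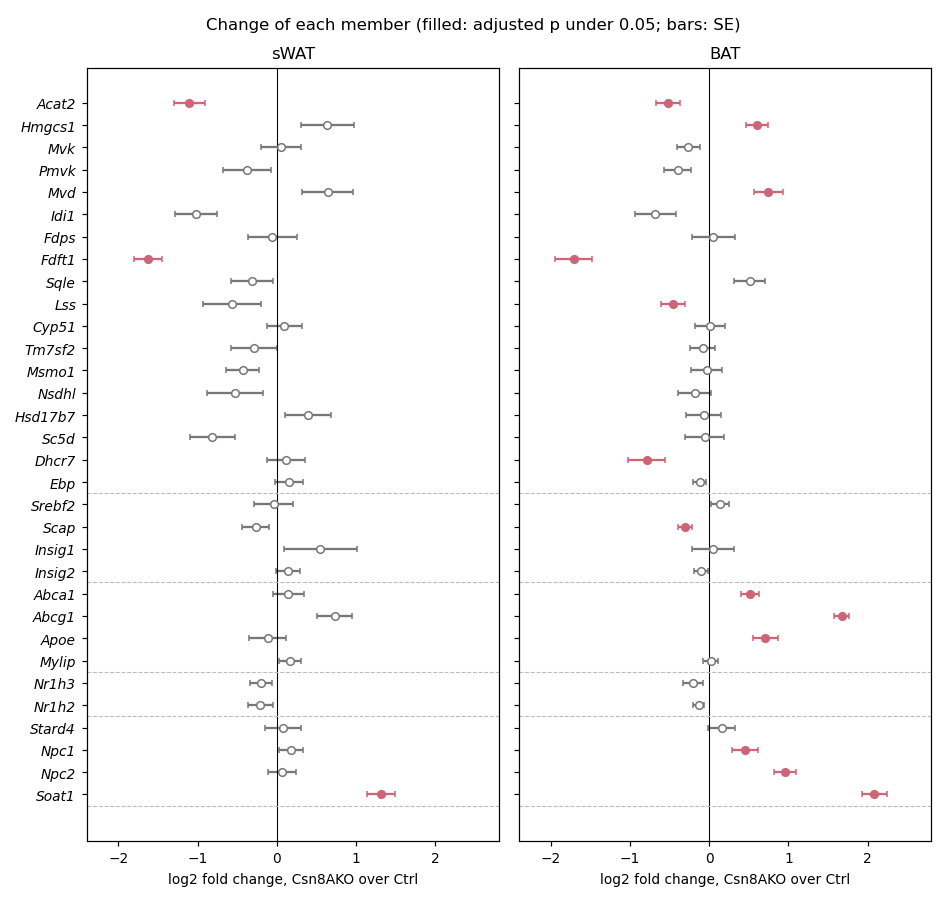
Change of each of the 32 members in sWAT (left) and BAT (right) as the log2 fold change of Csn8AKO over Ctrl, with bars for the standard error; filled points passed an adjusted p of 0.05 and dashed lines separate the roles. In BAT, *Abcg1*, *Npc2* and *Soat1* lie farthest to the right and *Fdft1* farthest to the left, and in sWAT only *Soat1*, *Acat2* and *Fdft1* are filled.

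Per length of exon, *Apoe* was the most abundant member in Ctrl tissue, at 1126 ± 76.4 FPKM in sWAT and 507 ± 90.7 FPKM in BAT. *Fdps* in sWAT (0.27 FPKM) and *Soat1* in BAT (0.36 FPKM) were the least abundant. Among the synthesis enzymes, *Acat2* was the highest in both tissues (20.2 ± 3.56 FPKM in sWAT and 57.0 ± 8.15 in BAT).

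Of the 18 synthesis enzymes, 0 rose and 2 fell in sWAT, and 2 rose and 4 fell in BAT. The 2 calls in sWAT were 11.1% of the enzymes, where 5.31% of all genes passed, and the 6 in BAT were 33.3%, where 31.9% of all genes passed. Their median change was −0.30 in sWAT and −0.10 in BAT on the log2 scale. The median over all genes tested was 0.03 in sWAT and 0.01 in BAT. *Acat2*, the cytosolic thiolase that joins acetyl-CoA units at the head of the pathway (chromosome 17, 12942890 to 12960747 on the minus strand, GRCm38), measured 42.8, 64.2, 48.9 and 49.95 CPM in the sWAT Ctrl libraries and 27.7, 15.9, 26.3 and 25.8 CPM in sWAT Csn8AKO. All 4 Csn8AKO values lay under the lowest Ctrl value, and *Acat2* fell by 1.11 on the log2 scale (SE 0.20, adjusted p = 0.0126, edgeR's quasi-likelihood test). Without the libraries high in muscle markers (Ctrl replicate 3 and Csn8AKO replicate 4) the adjusted p was 0.0639, and with the replicate number as a block it was 0.0734. In BAT, *Acat2* was at 173, 147, 155, 128 and 122 CPM in Ctrl and at 130, 126, 85.9, 85.8 and 77.3 CPM in Csn8AKO. The groups overlapped there, and the fall was 0.52 on the log2 scale (SE 0.15, adjusted p = 0.0199), which passed no longer without Csn8AKO replicate 3 (adjusted p = 0.0515) or 4 (adjusted p = 0.0532).

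*Hmgcs1*, which makes HMG-CoA and is a standard SREBP2 target (chromosome 13, 119690379 to 119708260, plus strand), measured 131, 132, 169, 117 and 200 CPM in BAT Ctrl and 196, 219, 276, 221 and 226 CPM in BAT Csn8AKO. Only the highest Ctrl library reached into the Csn8AKO range. *Hmgcs1* rose by 0.61 on the log2 scale (SE 0.14, adjusted p = 0.00492, edgeR), although with the 4 groups in a joint fit the adjusted p was 0.101. In sWAT it was at 40.5, 85.1, 59.9 and 66.4 CPM in Ctrl and at 99.2, 45.1, 102 and 145 CPM in Csn8AKO, a log2 fold change of 0.64 (SE 0.34) that did not pass (adjusted p = 0.337). With Ctrl replicate 1 and Csn8AKO replicate 2, the libraries high in lymphocyte markers, left out, the value was 0.71 (adjusted p = 0.0381). Of the exon bases of *Hmgcs1*, 12.1% are shared with *Gm48342* on the opposite strand.

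*Mvd*, which decarboxylates mevalonate diphosphate, was low in both tissues. In BAT it measured 6.23, 4.95, 5.99, 3.17 and 4.27 CPM in Ctrl and 10.6, 7.29, 8.25, 8.00 and 6.92 CPM in Csn8AKO. The groups did not overlap, and *Mvd* rose by 0.74 on the log2 scale (SE 0.18, adjusted p = 0.00669, edgeR). In sWAT the Ctrl values were 5.66, 10.6, 3.67 and 3.95 CPM and the Csn8AKO values 8.29, 9.64, 9.17 and 10.2 CPM. Ctrl replicate 2 was the highest of the 8 libraries while the other 3 Ctrl libraries lay below all 4 Csn8AKO libraries; the log2 fold change was 0.64 (SE 0.32, adjusted p = 0.299), and 1.06 without Ctrl replicate 2 (adjusted p = 0.0494).

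*Fdft1*, squalene synthase, which commits farnesyl diphosphate to sterols (chromosome 14, 63145150 to 63179578, minus strand), fell the most of the 32 members in each tissue. The sWAT Ctrl libraries held 42.9, 60.1, 52.7 and 53.0 CPM and the sWAT Csn8AKO libraries 15.3, 12.6, 19.9 and 19.9 CPM. In BAT, Ctrl was at 217, 204, 153, 185 and 97.3 CPM and Csn8AKO at 76.3, 46.2, 50.6, 49.96 and 38.4 CPM. Every Csn8AKO library lay below every Ctrl library of its tissue. The fall was 1.63 on the log2 scale in sWAT (SE 0.18, adjusted p = 0.00194, edgeR) and 1.71 in BAT (SE 0.23, adjusted p = 2.85e-04), and each passed in all the alternative fits, including those that left out 1 library. Of the exon bases of *Fdft1*, 774 (18.8%) overlap *Ctsb*, a lysosomal protease gene on the opposite strand; the sources used here do not say whether reads were counted by strand. The *Ctsb* log2 fold change was 0.32 in sWAT (adjusted p = 0.479, edgeR) and 0.29 in BAT (adjusted p = 0.0238). The part of the overlap in the *Fdft1* counts was not tested.

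Of the enzymes that follow squalene, *Lss* and *Dhcr7* passed, in BAT alone, with smaller changes than that of *Fdft1*. *Lss*, which closes the sterol ring, measured 52.7, 44.7, 52.2, 38.0 and 31.1 CPM in BAT Ctrl and 38.6, 31.5, 31.96, 24.4 and 32.5 CPM in BAT Csn8AKO, and fell by 0.46 on the log2 scale (SE 0.15, adjusted p = 0.0317, edgeR). *Dhcr7*, the reductase of a last step, was at 44.0, 39.1, 30.4, 26.0 and 24.1 CPM in BAT Ctrl and at 28.9, 17.1, 18.1, 18.1 and 11.9 CPM in BAT Csn8AKO, and fell by 0.79 (SE 0.23, adjusted p = 0.0236). Both genes had overlapping groups and their calls were weak. With 1 library left out, the adjusted p of *Lss* rose as far as 0.0783 (the call was lost without Ctrl replicate 1, 2 or 3 or Csn8AKO replicate 2, 3, 4 or 5), and that of *Dhcr7* as far as 0.0554 (lost without Ctrl replicate 1 or 2 or Csn8AKO replicate 2, 3 or 4). In sWAT, *Lss* was at 17.8, 52.4, 17.9 and 19.3 CPM in Ctrl and at 17.3, 13.8, 18.1 and 23.2 CPM in Csn8AKO (log2 fold change −0.57, SE 0.37, adjusted p = 0.438). *Dhcr7* in sWAT was at 12.4, 21.2, 10.3 and 11.2 CPM in Ctrl and at 14.1, 12.4, 18.0 and 15.0 CPM in Csn8AKO (0.11, SE 0.24, adjusted p = 0.851). For both, a single Ctrl library, replicate 2, stood at the top of the sWAT values.

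**Figure D2:**
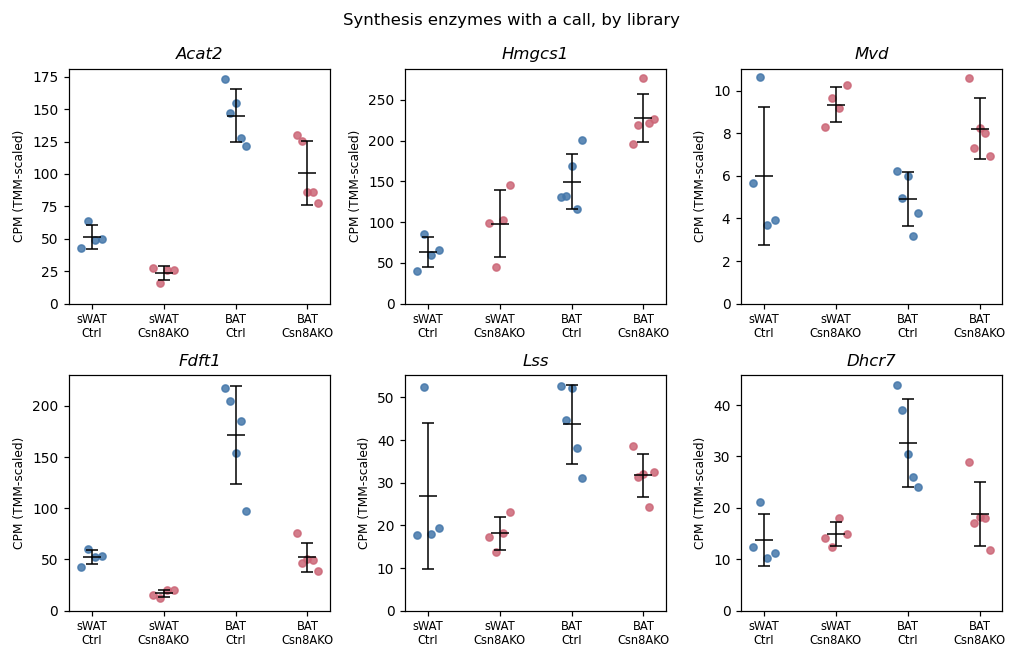
CPM of the 6 synthesis enzymes that passed in at least 1 tissue, 1 point per library, with the group mean and SD (n = 4 per sWAT group, n = 5 per BAT group). *Fdft1* is separated by genotype in each tissue, *Mvd* in BAT and *Acat2* in sWAT, and a single sWAT Ctrl library, replicate 2, lies far above the others of its tissue for *Lss* (52.4 CPM).

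The other 12 synthesis enzymes passed in neither tissue. *Idi1*, which isomerises isopentenyl diphosphate, came nearest. It was between 3.84 and 7.55 CPM in sWAT Ctrl and between 1.99 and 3.03 CPM in sWAT Csn8AKO, groups that did not overlap (log2 fold change −1.02, SE 0.27, adjusted p = 0.0580, edgeR), and its BAT value was −0.68 (SE 0.26, adjusted p = 0.0593). *Sc5d*, a sterol desaturase, was between 67.2 and 135 CPM in sWAT Ctrl and between 29.1 and 63.9 CPM in sWAT Csn8AKO, also without overlap (−0.82, SE 0.28, adjusted p = 0.137). *Sqle*, squalene epoxidase, had a BAT value of 0.51 (SE 0.19, adjusted p = 0.0585). *Mvk* and *Pmvk*, the mevalonate kinases, had BAT values of −0.26 and −0.40. *Cyp51*, *Tm7sf2*, *Msmo1*, *Nsdhl*, *Hsd17b7* and *Ebp*, which remodel the ring after lanosterol, lay between −0.19 and 0.01 in BAT and between −0.53 and 0.39 in sWAT, all with an adjusted p of at least 0.287. *Fdps* was counted at 0.835 to 2.64 CPM over all libraries, and 26.7% of its exon bases are shared with *Gm43738* on the same strand, so its level is uncertain.

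A single library stood apart over the synthesis enzymes. Ctrl replicate 2 of sWAT was the highest of the 8 sWAT libraries for 14 of the 18 enzymes, with a median excess of 0.87 on the log2 scale over the other 3 Ctrl libraries. Csn8AKO replicate 2 of sWAT, the library with the most lymphocyte marker RNA, was the lowest for 9 of the 18. In BAT no library was the highest for more than 7 enzymes, and Csn8AKO replicate 5 was the lowest for 8.

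**Figure D3:**
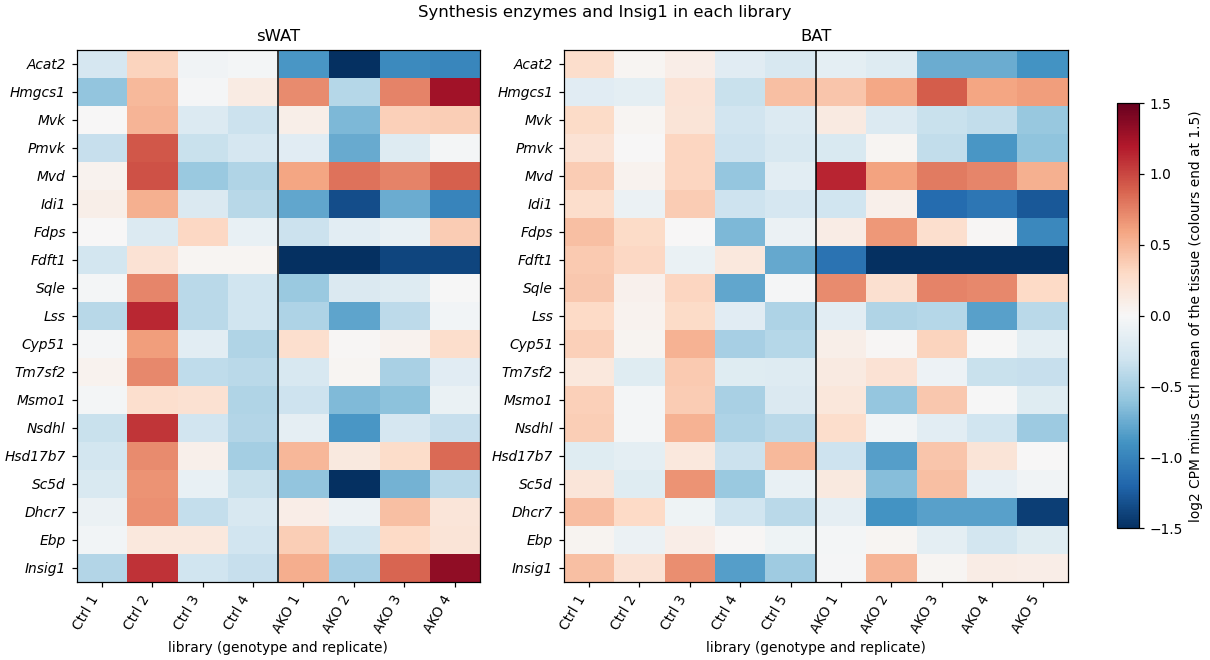
Log2 CPM of each synthesis enzyme and *Insig1* in each library minus the Ctrl mean of that tissue, for 8 sWAT libraries (left) and 10 BAT libraries (right), with the vertical line between genotypes and colours that end at 1.5. The column of sWAT Ctrl replicate 2 is red for most enzymes, while the *Fdft1* and *Acat2* rows are blue across the Csn8AKO libraries and the *Mvd* row is red across them.

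Promoter sequences are shown because the synthesis enzymes are known as SREBP2 targets. Those that passed in BAT moved in both directions, as genes over the whole table did. RefSeq promoters (GRCm38.p6, 250 bases before to 50 after each start) were matched for 26 members, and none were printed for *Fdps*, *Fdft1*, *Abcg1*, *Sqle*, *Npc1* and *Stard4*. The sterol response core was searched on either strand as the exact pattern TCACNCCAC, so variants of it were not counted. Of the 26, only *Hmgcs1* held this pattern. It was in at least 1 promoter of 1.44% of all 27025 genes with a promoter (1.24% of all 32851 promoters). The box CCAAT is bound by NF-Y, which acts beside SREBP2. It was in at least 1 promoter of 14 of the 15 synthesis enzymes matched and of 41.1% of all genes (37.4% of all promoters). The matched enzyme without the box was *Acat2*, which fell in each tissue. The DR4 repeat that LXR binds, searched as its exact consensus, was in 0 of the 26 and in 0.0148% of all genes (0.0152% of all promoters). These matches are descriptions of letters in a short window and say nothing of binding. The windows below run in the direction of the gene, with the matched motif in capitals (ATTGG where the box lies on the other strand), for an enzyme that rose with the sterol response core, an enzyme that rose, 2 that fell in BAT, and the esterification gene *Soat1*.
*Hmgcs1* (chr13:119690207-119690230, gene on the plus strand): caccgtcTCACCCCACttcccagg
*Mvd* (chr8:122443435-122443458, gene on the minus strand): gccagcgggCCAATcatatggcag
*Lss* (chr10:76531534-76531557, gene on the plus strand): gatgctctgATTGGccgagctcgc
*Dhcr7* (chr7:143830156-143830179, gene on the plus strand): ccacttccgATTGGtcgtctgtga
*Soat1* (chr1:156474344-156474367, gene on the minus strand): gcaggaccaCCAATggcatcccgg

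Of the 4 SREBP2 control genes, 0 passed in sWAT, where 5.31% of all genes passed, and 1, *Scap*, in BAT, where 31.9% did. *Scap*, the escort of SREBP2, measured 62.9, 63.0, 74.4, 65.4 and 73.1 CPM in BAT Ctrl and 45.5, 57.8, 58.5, 54.9 and 57.2 CPM in BAT Csn8AKO. The groups did not overlap, and *Scap* fell by 0.31 on the log2 scale (SE 0.09, adjusted p = 0.0145, edgeR). The value was −0.18 under scaling by library size alone (adjusted p = 0.245), and −0.25 without the Csn8AKO libraries that held muscle markers (adjusted p = 0.0661). In sWAT *Scap* was at 56.8, 55.3, 47.0 and 41.6 CPM in Ctrl and at 30.6, 46.0, 41.1 and 49.5 CPM in Csn8AKO (−0.26, SE 0.17, adjusted p = 0.433). Of the exon bases of *Scap*, 13.2% are shared with *5830462I19Rik* on the opposite strand. *Srebf2*, which encodes SREBP2, was at 76.4 ± 13.5 CPM in sWAT Ctrl and 74.4 ± 27.8 in Csn8AKO, and at 71.5 ± 8.07 and 78.8 ± 13.1 CPM in BAT, with log2 fold changes of −0.04 and 0.14. *Insig1*, itself a SREBP2 target, varied widely within each genotype, from 82.5 to 239 CPM in sWAT Ctrl, from 79.4 to 282 in sWAT Csn8AKO, from 99.9 to 289 in BAT Ctrl and from 176 to 252 in BAT Csn8AKO (log2 fold changes 0.54, SE 0.46, and 0.05, SE 0.27). *Insig2* had log2 fold changes of 0.14 in sWAT and −0.11 in BAT. The groups of *Srebf2*, *Insig1* and *Insig2* overlapped in each tissue.

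Of the 4 LXR targets, 3 rose in BAT (median log2 fold change 0.61), where 16.0% of all genes were higher. In sWAT 0 passed (median 0.16), where 5.31% of all genes passed. *Abcg1*, which passes cholesterol to HDL (chromosome 17, 31057675 to 31117988, plus strand), measured 23.5, 20.2, 19.3, 19.5 and 19.7 CPM in BAT Ctrl and 55.9, 74.5, 61.4, 67.2 and 66.2 CPM in BAT Csn8AKO. The lowest Csn8AKO value was far above the highest Ctrl value, and *Abcg1* was 3.18-fold higher (log2 fold change 1.67, SE 0.09, adjusted p = 5.48e-08, edgeR). In sWAT it was at 83.4, 43.9, 49.2 and 57.3 CPM in Ctrl and at 72.7, 121, 94.1 and 100.6 CPM in Csn8AKO, where Ctrl replicate 1, a library high in lymphocyte markers, reached into the Csn8AKO range. The sWAT log2 fold change was 0.73 (SE 0.22, adjusted p = 0.0894), and 0.95 without Ctrl replicate 1 (adjusted p = 0.0271). That was the only 1 of 8 fits leaving out 1 library that passed. Without both libraries high in lymphocyte markers it was 0.83 (adjusted p = 0.0111). The sWAT change also passed under DESeq2 (adjusted p = 0.0223) and with the 4 groups in a joint edgeR fit (adjusted p = 0.00702). Over all settings its adjusted p reached 0.628.

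*Abca1*, which loads cholesterol onto lipid-poor apolipoprotein (chromosome 4, 53030787 to 53159895, minus strand), was at 416, 438, 575, 498 and 572 CPM in BAT Ctrl and at 745, 699, 645, 696 and 782 CPM in BAT Csn8AKO. The groups were separate, and *Abca1* rose by 0.51 on the log2 scale (SE 0.11, adjusted p = 0.00297, edgeR). In sWAT its values were 538, 682, 720 and 818 CPM in Ctrl and 772, 585, 837 and 856 CPM in Csn8AKO, which overlapped (0.14, SE 0.20, adjusted p = 0.743). *Apoe*, an apolipoprotein that accepts exported lipid, was at 1055, 1039, 859, 1395 and 1074 CPM in BAT Ctrl and at 1499, 1342, 1856, 2076 and 2084 CPM in BAT Csn8AKO. Only 1 Ctrl library lay within the Csn8AKO range, and *Apoe* rose by 0.71 (SE 0.15, adjusted p = 0.00307). The sWAT values of *Apoe* were 2637, 2391, 2340 and 2257 CPM in Ctrl and 1956, 1551, 2633 and 2735 CPM in Csn8AKO (−0.12, SE 0.23, adjusted p = 0.833), with more spread in Csn8AKO than in Ctrl.

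*Mylip*, a ubiquitin ligase gene that LXR induces and that marks lipoprotein receptors for breakdown, passed in neither tissue. It was at 49.7, 47.7, 56.9, 61.5 and 52.7 CPM in BAT Ctrl and at 53.6, 64.6, 47.2, 56.0 and 50.8 CPM in BAT Csn8AKO, a log2 fold change of 0.02 (SE 0.10, adjusted p = 0.901, edgeR). In sWAT it was at 51.1, 37.8, 50.2 and 45.8 CPM in Ctrl and at 44.0, 55.1, 58.1 and 50.6 CPM in Csn8AKO (0.17, SE 0.14, adjusted p = 0.567). The receptor genes did not pass either: *Nr1h3* (LXR alpha) had log2 fold changes of −0.20 in sWAT and −0.21 in BAT, and *Nr1h2* (LXR beta) of −0.21 and −0.13.

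**Figure D4:**
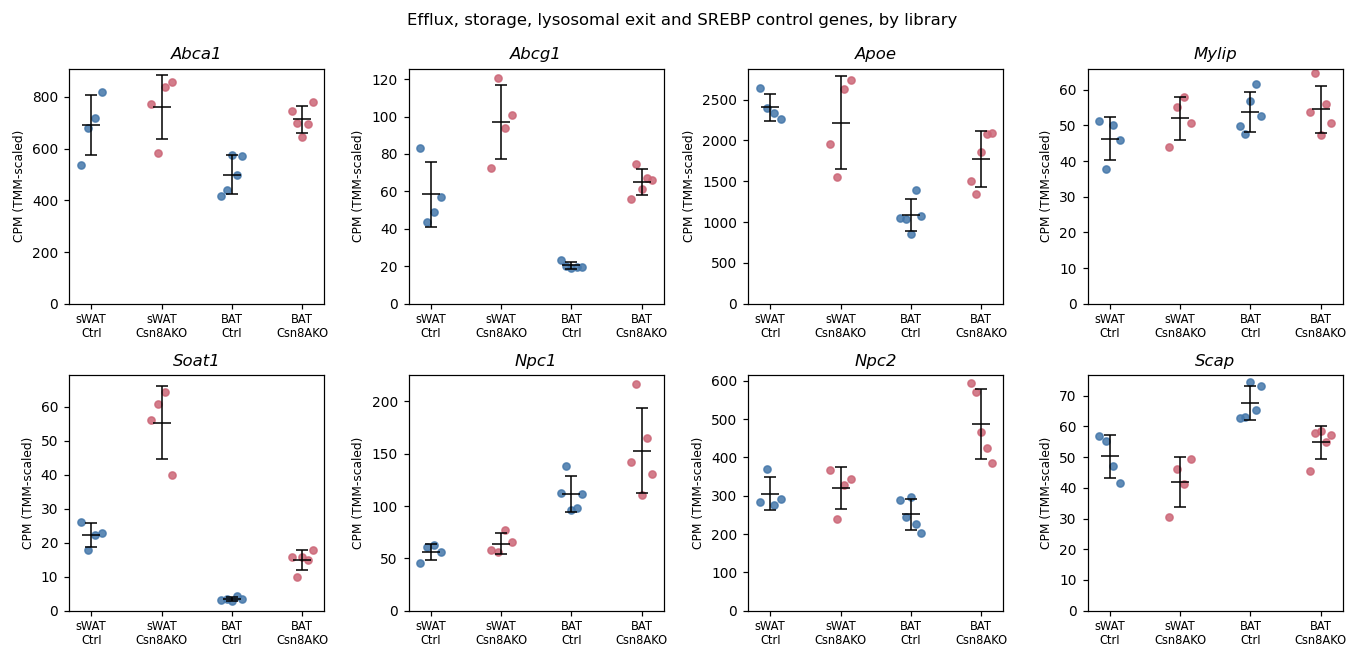
CPM of the 4 LXR targets, *Soat1*, *Npc1*, *Npc2* and *Scap*, 1 point per library, with the group mean and SD (n = 4 per sWAT group, n = 5 per BAT group). *Abca1*, *Abcg1*, *Npc2* and *Soat1* are higher in every BAT Csn8AKO library than in any BAT Ctrl library, *Scap* is lower in every one, and in sWAT only *Soat1* is separated by genotype.

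Of the 4 transport and storage genes, 1 rose in sWAT, where 2.3% of all genes were higher, and 3 in BAT, where 16.0% were. *Soat1*, which esterifies cholesterol for storage (chromosome 1, 156424525 to 156474331, minus strand), measured 26.2, 17.8, 22.2 and 22.9 CPM in sWAT Ctrl and 56.1, 60.9, 64.4 and 40.1 CPM in sWAT Csn8AKO. In BAT it was at 3.26, 3.52, 2.84, 4.32 and 3.57 CPM in Ctrl and at 15.7, 9.86, 15.8, 15.0 and 17.9 CPM in Csn8AKO. The groups were apart in each tissue. *Soat1* was 2.48-fold higher in sWAT (log2 fold change 1.31, SE 0.18, adjusted p = 0.00396, edgeR; adjusted p = 0.0553 under scaling by library size alone) and 4.24-fold higher in BAT (2.08, SE 0.16, adjusted p = 1.08e-06).

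*Npc2*, the soluble protein that lifts cholesterol out of the lysosome, was at 289, 244, 297, 227 and 202 CPM in BAT Ctrl and at 594, 571, 465, 424 and 386 CPM in BAT Csn8AKO, and rose by 0.96 on the log2 scale without overlap (SE 0.14, adjusted p = 1.71e-04, edgeR). In sWAT its values were 285, 369, 277 and 293 CPM in Ctrl and 366, 240, 329 and 343 CPM in Csn8AKO (0.06, SE 0.18, adjusted p = 0.886). *Npc1*, the membrane partner of *Npc2*, was at 113, 139, 96.4, 97.6 and 111 CPM in BAT Ctrl and at 142, 216, 110, 165 and 131 CPM in BAT Csn8AKO. Those groups overlapped, and the rise of 0.46 (SE 0.16, adjusted p = 0.0482) was lost without Ctrl replicate 1, 3, 4 or 5 or Csn8AKO replicate 1, 2 or 4 (adjusted p up to 0.112); without Csn8AKO replicate 2, the highest library, the value was 0.30. In sWAT *Npc1* was at 46.0, 60.9, 63.1 and 55.8 CPM in Ctrl and at 57.9, 55.6, 77.4 and 65.4 CPM in Csn8AKO (0.18, SE 0.15, adjusted p = 0.560). *Stard4*, a cytosolic sterol carrier, had log2 fold changes of 0.08 in sWAT and 0.16 in BAT.

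Synthesis was set against LXR targets as the mean log2 CPM of the 18 enzymes minus that of *Abca1*, *Abcg1*, *Apoe* and *Mylip* in each library, described without a test because the genes were grouped with results known. In BAT this difference was −2.95 ± 0.34 in Ctrl and −3.87 ± 0.27 in Csn8AKO, a shift of −0.92 with no overlap (−1.04 to −0.83 with 1 library left out). The LXR mean went from 7.28 ± 0.09 to 8.01 ± 0.09, without overlap, and the synthesis mean from 4.33 ± 0.27 to 4.13 ± 0.19, with overlap. In sWAT the difference was −4.09 ± 0.51 in Ctrl and −4.56 ± 0.20 in Csn8AKO, a shift of −0.47 with overlap. Leaving out sWAT Ctrl replicate 2 moved that shift to −0.22, the smallest of the 8 values obtained with 1 library left out, and the other 7 lay between −0.58 and −0.39.

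**Figure D5:**
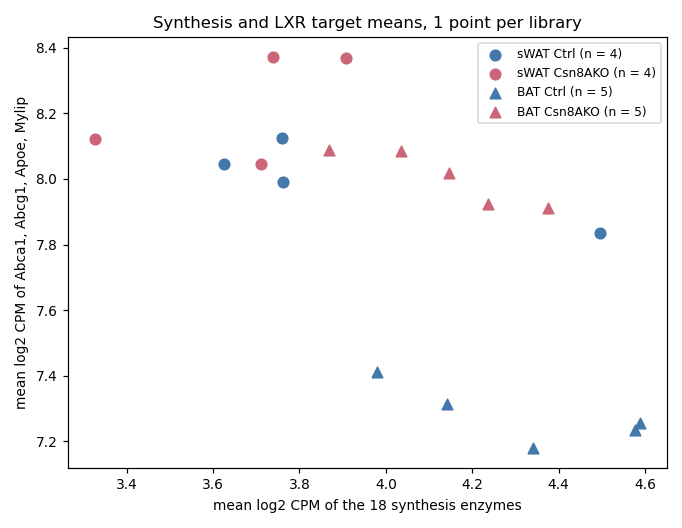
Mean log2 CPM of the 18 synthesis enzymes (horizontal) against that of the 4 LXR targets (vertical), 1 point per library, with circles for sWAT and triangles for BAT. The 5 BAT Csn8AKO libraries lie between 7.91 and 8.09 on the vertical axis, above all 5 BAT Ctrl libraries (7.18 to 7.41), while sWAT genotypes overlap on it and sWAT Ctrl replicate 2 stands to the right at 4.50.

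The change in BAT was compared with that in sWAT by the interaction of genotype and tissue, which 1 member, *Abcg1*, passed (3.12% of the set, against 2.36% of all 22509 genes tested and 1.61% in the same direction). Its size was under 1 on the log2 scale, and 1.81% of all genes passed with a size of at least 1. The *Abcg1* change was larger in BAT by 0.93 on the log2 scale (SE 0.22, adjusted p = 0.0261, edgeR), and the adjusted p was 0.0517 without BAT Ctrl replicate 3, 0.0507 without BAT Ctrl replicate 4 and 0.0515 without BAT Csn8AKO replicate 4. It was 0.0940 under scaling by library size alone and 0.148 with the replicate block. *Npc2* (0.88, adjusted p = 0.0599), *Soat1* (0.76, adjusted p = 0.0998) and *Apoe* (0.81, adjusted p = 0.138) were not shown to differ between the tissues, nor was *Fdft1* (−0.10, SE 0.32, adjusted p = 0.930).

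Beyond the set, 45 other genes of the pathway were listed and 43 tested, of which 4 passed in sWAT (9.3%, against 5.31% of all genes, with 3 higher and 1 lower) and 21 in BAT (48.8%, against 31.9%, with 10 higher and 11 lower), and 5 in the interaction (11.6%, against 2.36%). *Nceh1*, a cholesteryl ester hydrolase that works opposite to *Soat1*, rose in each tissue, from 7.92 ± 1.23 to 29.5 ± 9.18 CPM in sWAT (log2 fold change 1.90, SE 0.23, adjusted p = 0.00275, edgeR) and from 4.74 ± 0.968 to 13.7 ± 1.09 CPM in BAT (1.53, SE 0.15, adjusted p = 5.35e-06). *Nus1*, which uses farnesyl diphosphate to make dolichol, also rose in each tissue (0.93 in sWAT, adjusted p = 0.00864, and 0.54 in BAT, adjusted p = 0.00126). The sWAT call of *Nus1* was lost under scaling by library size alone (adjusted p = 0.293).

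The other 8 named pathway genes passed in BAT and missed the threshold in sWAT, which by itself does not show that the tissues differ. *Scp2*, a peroxisomal sterol carrier gene, rose from 408 ± 46.9 to 1025 ± 352 CPM in BAT (1.33, adjusted p = 1.13e-04) and had an interaction of 1.56 (adjusted p = 0.00953, and 0.0579 with the replicate block). *Vldlr*, a lipoprotein receptor gene, fell from 254 ± 44.9 to 96.1 ± 37.8 CPM (−1.40, adjusted p = 0.00120). Of the 7 LXR partners and targets outside the set, 3 rose and 2 fell in BAT, where 16.0% of all genes were higher and 15.8% lower. *Pltp* rose by 0.82 (adjusted p = 0.00243), *Lpcat3* by 0.44 (adjusted p = 0.00281) and *Arl4c*, named after its values were seen, by 0.96 (adjusted p = 0.00882). *Apoc1* fell from 132 ± 26.6 to 59.3 ± 17.9 CPM (−1.16, adjusted p = 9.02e-04), and *Smpdl3a* fell by 0.75 (adjusted p = 3.29e-05). *Erlin2*, which takes part in sterol-regulated degradation, fell by 0.54 (adjusted p = 1.07e-04), and *Gramd1c*, a carrier of plasma membrane sterol, by 1.63 (adjusted p = 3.30e-04).

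Macrophage markers moved with genotype in each tissue, and adipocyte markers in sWAT. Over all genes, 2.3% were higher and 3.0% lower in sWAT, and 16.0% higher and 15.8% lower in BAT. In bulk tissue, fewer cells of a type and less RNA per cell cannot be told apart. Summed over 14 macrophage markers, levels were 1374 to 1865 CPM in sWAT Ctrl against 2200 to 3750 in sWAT Csn8AKO, with 8 of 14 higher, and 149 to 203 against 468 to 655 CPM in BAT, with 12 of 14 higher; none of the 14 was at 0 in any library. The 9 lipid-associated macrophage markers summed to 111 to 232 against 366 to 528 CPM in sWAT (7 higher) and to 53.9 to 78.2 against 323 to 387 CPM in BAT (9 higher). *Trem2* among them was at 0.229 ± 0.164 CPM in BAT Ctrl and 5.07 ± 0.801 in BAT Csn8AKO. The 12 adipocyte markers summed to 32066 to 38486 CPM in sWAT Ctrl and to 9609 to 22075 in sWAT Csn8AKO (5 lower). In BAT they summed to 16702 to 19299 against 15141 to 17937 CPM, which overlapped (1 higher, 2 lower). That was 25.0% of these markers, against 31.9% of all genes. The part of these shifts in the changes of *Soat1*, *Abcg1*, *Abca1*, *Apoe*, *Npc2*, *Fdft1* and *Acat2* was not tested.

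Other marker lists were also summed. Lymphocyte markers reached 281 CPM in sWAT Ctrl replicate 1 and 507 CPM in sWAT Csn8AKO replicate 2, and were at most 29.8 CPM elsewhere. Muscle markers reached 2828 CPM in sWAT Ctrl replicate 3, 1679 in sWAT Csn8AKO replicate 4, and 107 and 190 CPM in BAT Csn8AKO replicates 1 and 5, where the other BAT libraries held at most 2.99 CPM. Fibroblast markers were 451 to 748 CPM in BAT Ctrl and 1054 to 2113 in BAT Csn8AKO (5 of 5 higher, against 16.0% of all genes). In sWAT they were 3382 to 3979 against 3766 to 7143 CPM (0 of 5 passed, against 5.31% of all genes). Schwann cell markers were 103 to 129 against 109 to 171 CPM in BAT (5 of 6 higher) and 198 to 297 against 249 to 413 CPM in sWAT (0 of 6 passed). Brown fat markers were 106 to 206 CPM in sWAT Ctrl against 20.9 to 42.9 in sWAT Csn8AKO, and 4682 to 8010 against 4699 to 9682 CPM in BAT. Endothelial markers were 403 to 444 against 248 to 403 CPM in sWAT and 670 to 907 against 709 to 984 CPM in BAT, and epithelial markers were at most 19.6 CPM in any library. Without the 2 sWAT libraries high in lymphocyte markers, 5 members passed in sWAT, where 9.81% of all genes did. Without the 2 high in muscle markers 2 passed, where 1.99% of all genes did. With all sWAT libraries 3 members and 5.31% of all genes passed. Without the 2 BAT libraries with muscle markers 11 members passed in BAT. With all BAT libraries 13 members and 31.9% of all genes passed.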

How the data were processed

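Ribosomal-depleted libraries were sequenced as paired ends, and the authors aligned the reads with STAR to Ensembl release 101 (GRCm38) and counted uniquely aligned, unambiguous reads per gene with featureCounts. Their tables deposited counts, CPM, FPKM and TPM per gene; the deposited FPKM and TPM were not used in any test, and the deposited CPM equal counts over the library total. Whether counting used strand is not given in the sources used here.

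Counts were tested with edgeR 4.0.16 (quasi-likelihood F-test, robust, TMM factors) in R 4.3.3, within each tissue by genotype and over all 18 libraries for the interaction. The filter was filterByExpr (minimum count 10, total 15), and p-values were Benjamini-Hochberg adjusted over all genes tested. Printed CPM are TMM-scaled, FPKM are these per kilobase of exon, and log2 means used a prior count of 2. DESeq2 1.42.0, other scalings and filters, and leaving out libraries were alternatives. Test scripts were tested on simulated data. The labels number 4 or 5 replicates per group, and the paper gives the same n for its mice. The p-values set the genotype difference against the spread between these libraries, and depth limits low genes such as *Fdps*.

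The members and gene lists were chosen with earlier results of these data known. Named were members that passed any of the 3 tests (up to 16 by adjusted p), *Abca1*, *Abcg1*, *Apoe* and *Mylip*, and the 10 other pathway genes of smallest adjusted p. Marker lists covered macrophages, lipid-associated macrophages, adipocytes, brown fat, lymphocytes, muscle, Schwann cells, epithelium, fibroblasts and endothelium. Fits without marker-high libraries were chosen after seeing the data.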

Additional observations from a re-analysis of the deposited data

Results flagged for a closer look

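Within 140 groups of 4 or 5 libraries checked, 12 held a library whose gap to the nearest of the others, over the range of the group, passed Dixon's critical value, a criterion that chance passes in about 1 in 20 groups. The groups of 1 tissue share their libraries, so these are not independent. Of these, 6 were sWAT Ctrl replicate 2, which was high in *Pmvk* (46.2 CPM, the others 19.0 to 20.2), *Lss* (52.4, the others 17.8 to 19.3), *Nsdhl* (43.3, the others 15.1 to 16.8), *Sc5d* (135, the others 67.2 to 78.8), *Insig1* (239, the others 82.5 to 91.3) and the mean log2 CPM of the 18 synthesis enzymes (4.50, the others 3.62 to 3.76). sWAT Csn8AKO replicate 2 was low in *Acat2* (15.9 CPM, the others 25.8 to 27.7), and sWAT Ctrl replicate 1 was low in *Nr1h3* (70.4 CPM, the others 88.4 to 91.4). In BAT, Csn8AKO replicate 1 was low in *Scap* (45.5 CPM, the others 54.9 to 58.5), Csn8AKO replicate 2 was high in *Insig1* (252, the others 176 to 191) and low in *Stard4* (4.97, the others 9.42 to 9.89), and Ctrl replicate 1 was high in *Abcg1* (23.5, the others 19.3 to 20.2).

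The change differed between BAT and sWAT, by the interaction in edgeR's quasi-likelihood test, for *Abcg1* (0.93 on the log2 scale, adjusted p = 0.0261), *Smpdl3a* (−0.93, adjusted p = 0.0403), *Scp2* (1.56, adjusted p = 0.00953) and *Gramd1c* (−2.01, adjusted p = 0.0211). The tissues also differ in age. Scaling by library size alone ended the call for *Abcg1* (adjusted p = 0.0940), *Smpdl3a* (adjusted p = 0.366) and *Gramd1c* (adjusted p = 0.0983). The replicate block ended it for *Abcg1* (adjusted p = 0.148), *Smpdl3a* (adjusted p = 0.148), *Scp2* (adjusted p = 0.0579) and *Gramd1c* (adjusted p = 0.0544). The *Smpdl3a* interaction was kept in 3 of 18 fits that left out 1 library, with an adjusted p as high as 0.0838.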

How the results depend on the processing

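Members called in sWAT numbered 3, and 5 under DESeq2, 5 with all 4 groups in a joint fit and 5 without both libraries high in lymphocyte markers, with 3 to 4 when 1 library was left out. In BAT 13 were called, 9 to 14 with 1 library left out. Over all genes the calls in BAT numbered 7121, and 5723 to 8146 with 1 library left out. In the interaction 1 was called, *Abcg1*, 2 under library size alone (neither of them *Abcg1*, adjusted p = 0.0940), 4 under DESeq2, and 0 to 2 with 1 library left out (0 without BAT Ctrl replicate 3 or 4 or Csn8AKO replicate 4, 2 without BAT Csn8AKO replicate 2). Over all genes, the 1000 calls in sWAT became 434 by library size alone, 1946 under DESeq2, 2463 in the joint fit, 1820 without both lymphocyte-high libraries, 385 without both muscle-high libraries and as few as 326 without Csn8AKO replicate 3; the 532 interaction calls became 1092 under DESeq2. Scaling by library size alone moved the median of all genes to 0.14 in BAT and 0.21 in the interaction. The cause was not tested.

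The replicate numbers were not taken as pairs: deviations of same-numbered libraries correlated at −0.39 to 0.22 in sWAT and −0.10 to 0.10 in BAT. With the replicate block, 2 members were called in sWAT (*Acat2* was lost, adjusted p = 0.0734), 15 in BAT and 0 in the interaction (*Abcg1* was lost, adjusted p = 0.148), and 299 and 297 genes over all in sWAT and the interaction.

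Values that changed sign did so without a call. In sWAT, *Npc2* was −0.033 by library size alone and −0.030 without the muscle-high libraries (−0.0086 to 0.18 with 1 library left out), *Apoe* 0.070 without the lymphocyte-high libraries (−0.24 to 0.022), and *Dhcr7* −0.023 without the muscle-high libraries (−0.017 to 0.39). *Smpdl3a* ranged from −0.060 to 0.34 with 1 library left out, and *Lpcat3* from −0.13 to 0.19, with 0.0070 under the replicate block. In BAT, *Mylip* was −0.00080 in the joint fit and −0.049 to 0.078 with 1 library left out. The synthesis minus LXR shift kept its sign throughout.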

Other observations

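These 3 pathway genes are given here although they fell outside the rule for named genes and were chosen after their values were seen. *Lipa*, lysosomal acid lipase, which frees cholesterol from lipoprotein esters, was 58.1 ± 1.80 CPM in sWAT Ctrl and 136 ± 43.5 in sWAT Csn8AKO (log2 fold change 1.22, adjusted p = 0.00938, edgeR), and 91.0 ± 32.4 against 79.1 ± 10.5 CPM in BAT (−0.20, adjusted p = 0.519), with an interaction of −1.44 (adjusted p = 0.0184). *Cav1*, which encodes the cholesterol-binding coat protein of caveolae, was 1116 ± 258 against 641 ± 175 CPM in sWAT (−0.80, adjusted p = 0.105) and 549 ± 66.0 against 669 ± 35.8 CPM in BAT (0.28, adjusted p = 0.0433), with an interaction of 1.07 (adjusted p = 0.0370). *Srebf1*, which encodes the SREBP of fatty acid synthesis, fell from 622 ± 111 to 237 ± 111 CPM in sWAT (−1.39, adjusted p = 0.0314) and was 647 ± 174 against 485 ± 143 CPM in BAT (−0.42, adjusted p = 0.152).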
